A study of Homo sapiens with 7 samples.

Results

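The clustered histone genes were taken as every gene of the FPKM table whose symbol begins with HIST1H, HIST2H, HIST3H or HIST4H, which gave 70 of 26175 genes. Of these, 56 lie in the HIST1 cluster on chromosome 6, 10 in HIST2 and 3 in HIST3 on chromosome 1, and 1, HIST4H4, on chromosome 12. By class they are 6 linker histone H1 genes, 17 H2A, 20 H2B, 13 H3 and 14 H4 genes. The annotation lists 64 as coding and 3 as pseudogenes (HIST1H2APS1, HIST2H2BA and HIST2H2BC), and the 3 it does not match by name hold a full reading frame and are counted as coding here. Steady-state RNA and transcription start sites (TSSs) were measured in T47D/A1-2 cells, a derivative of the luminal breast cancer line T47D that overexpresses the rat glucocorticoid receptor and carries a luciferase reporter driven by the MMTV promoter. The labels name the cells T-47D and give 1 condition, with growth in 10% serum followed by at least 24 hours in 5% serum stripped with charcoal and dextran. RNA-seq values are FPKM (fragments scaled to transcript length and to the number of mapped fragments), deposited as 1 column merged over 3 replicates. Start-seq, which sequences the capped 5′ ends of short nuclear RNA, gave 1 list of calls from replicate 1, with no read counts. No value below therefore has a replicate error, depth is unknown for both assays, and no test between genes was made.

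Core histones H2A, H2B, H3 and H4 form the nucleosome around which DNA is wrapped, and H1 binds the DNA between nucleosomes. Most clustered genes are replication-dependent: they are transcribed mainly in S phase, typically at nuclear histone locus bodies organised by NPAT, and usually lack introns. Their mRNAs typically end in a conserved stem-loop that is bound by SLBP, in place of a poly-A tail. The RNA-seq libraries were poly-A enriched, so FPKM here counts the RNA that passed that selection, whereas Start-seq does not depend on a poly-A tail. Fewer cells in S phase and less RNA per cell cannot be told apart in these bulk samples.

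The 3′ stem-loop was searched on the sense strand as GG, 2 free bases, CTT, 1 free base, T, 1 free base, AG, 2 free bases and CC, within 150 nt past the stop codon, because it is the sequence that sets the 3′ end of these mRNAs. All 67 coding genes held it, at a median of 36 nt past the stop codon (23 to 68 nt). The 16-nt match took 10 forms, of which 6 were found in 1 gene each. The 4 most frequent are shown, with the 6-nt arms in capitals and the 4-nt loop in lower case.
38 genes of H1, H2A, H2B and H3: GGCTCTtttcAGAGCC
10 genes of H4: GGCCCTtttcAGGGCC
10 genes of H1, H2A, H2B and H3: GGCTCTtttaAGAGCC
3 genes of H4: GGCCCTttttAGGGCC
The arms were exact reverse complements in 65 genes. In the other 2, HIST1H2AG and HIST1H2AK, they were not.
HIST1H2AG: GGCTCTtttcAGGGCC
HIST1H2AK: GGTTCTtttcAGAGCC
HIST1H2BK, HIST1H2BD and HIST1H2BC, which have high FPKM (below), carry the form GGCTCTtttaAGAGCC. The search therefore did not separate genes with high FPKM from genes listed at 0, since both groups hold the stem-loop.

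Compared among these genes only, coding sequences were nearly all distinct, which bears on how far reads of one gene can be told from those of another. Copies elsewhere in the genome were not part of this comparison. The first 100 nt of HIST2H2AA4, HIST2H3A, HIST2H3D and HIST2H4B have an exact copy elsewhere, so a distinct coding sequence here does not mean that reads could be placed. The 14 H4 genes hold 13 distinct coding sequences, HIST1H4J and HIST1H4K being identical, but 2 translations, and 13 genes share the commoner one. The 13 H3 genes have 3 translations, 10 of them shared. The 16 coding H2A genes have 11, the 18 coding H2B genes have 14 and the 6 H1 genes have 6. Across the 67 coding genes, 66 coding sequences were distinct.

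Promoter sequences are shown for 6 genes or gene pairs because the histone classes differed in the letters upstream of their called gene TSSs. All are in GRCh37 (hg19). Capitals mark CCAAT (bound by NF-Y), ATTTGCAT (the octamer bound by POU2F1), TATAAA (the TATA box), AAACACA (the H1 box), or GGTCCG (part of the element bound by HINFP at H4 genes), on either strand. The first sequence runs on the plus strand from the gene TSS of HIST1H2BC to that of HIST1H2AC, chr6:26124154-26124400.
HIST1H2BC to HIST1H2AC: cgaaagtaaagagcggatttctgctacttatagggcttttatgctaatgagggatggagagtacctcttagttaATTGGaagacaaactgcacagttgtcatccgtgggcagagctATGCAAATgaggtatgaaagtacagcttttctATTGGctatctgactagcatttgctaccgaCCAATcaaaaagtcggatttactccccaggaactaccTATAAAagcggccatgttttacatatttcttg
The next is the interval between HIST1H2BK and HIST1H2AH, plus strand, chr6:27114635-27114885.
HIST1H2BK to HIST1H2AH: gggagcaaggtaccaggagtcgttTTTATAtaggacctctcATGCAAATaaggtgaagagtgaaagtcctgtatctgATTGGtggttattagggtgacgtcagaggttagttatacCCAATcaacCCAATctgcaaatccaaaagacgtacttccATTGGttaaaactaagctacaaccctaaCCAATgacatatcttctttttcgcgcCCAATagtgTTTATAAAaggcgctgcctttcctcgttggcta
The other 4 run from 120 nt upstream to 5 nt downstream of the gene TSS, on the strand of the gene: HIST1H1C (minus, chr6:26056698-26056823), HIST1H3H (plus, chr6:27777709-27777834), HIST1H4H (minus, chr6:26285757-26285882) and HIST1H4B (minus, chr6:26027506-26027631).
HIST1H1C: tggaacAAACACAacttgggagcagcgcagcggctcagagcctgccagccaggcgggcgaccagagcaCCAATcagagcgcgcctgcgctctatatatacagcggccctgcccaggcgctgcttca
HIST1H3H: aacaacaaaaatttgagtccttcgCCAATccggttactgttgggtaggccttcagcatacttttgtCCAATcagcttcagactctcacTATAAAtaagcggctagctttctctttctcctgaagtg
HIST1H4H: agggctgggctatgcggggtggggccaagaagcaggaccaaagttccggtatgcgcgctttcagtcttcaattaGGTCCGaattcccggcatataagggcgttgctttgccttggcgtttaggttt
HIST1H4B: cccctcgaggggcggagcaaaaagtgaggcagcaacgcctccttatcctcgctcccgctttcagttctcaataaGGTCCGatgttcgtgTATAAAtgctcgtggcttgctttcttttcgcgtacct
The H2A and H2B genes of each pair share the interval, with several CCAAT and 1 octamer between them. The H1 gene holds an H1 box and a CCAAT, the H3 gene 2 CCAAT and a TATAAA, and both H4 genes GGTCCG without CCAAT.

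A gene TSS was called at 49 of the 70 genes (70.0%, exact Clopper-Pearson 95% interval 57.9% to 80.4%), where 42.4% of all genes with a known strand had one. These intervals cover counting error over genes only. The authors searched for gene TSSs only around annotated mRNA starts. The 42.4% was taken over genes of every type with a known strand, whereas 67 of the 70 are coding, so the shares are not like for like. In each class the called genes were 4 of 6 H1, 14 of 17 H2A, 15 of 20 H2B, 9 of 13 H3 and 7 of 14 H4. By cluster they were 41 of 56 in HIST1, 4 of 10 in HIST2, 3 of 3 in HIST3 and HIST4H4. Calls fell on annotated starts: 47 lay within 50 nt of one, with a median distance of 0 nt, and the start codon lay a median of 37 nt downstream of the call. The exceptions are HIST1H2BB, called 506 nt upstream of the start of its locus, and HIST1H2AB, called 106 nt into its locus, past the start codon. The call of HIST1H3J, 5 nt into its locus, also lay past the start codon. For HIST1H3E the call was 977 nt upstream of the start in the FPKM table, but 21 nt from the nearest start in the annotation used here. HIST1H2BA (133 nt), HIST1H2BH (51), HIST1H2BN (77) and HIST2H2AC (57) were also called upstream of the start in the FPKM table but near another annotated start. Between candidate positions the authors kept the one closest to the annotated start, so closeness is partly set by the calling.

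Among the 21 genes without a call, 8 had an exact second copy of the first 50 nt of their transcript in the genome, and none of the 49 called genes did. The 8 are HIST1H4J, HIST1H4K, HIST2H2AA4, HIST2H2BA, HIST2H2BC, HIST2H3A, HIST2H3D and HIST2H4B. The calls rest on uniquely mapped fragments, so reads that stop within such a copy could not be placed. The other 13 have a unique 5′ end, and 9 of them were listed at 0 FPKM. HIST2H2BA and HIST2H2BC among the 8, and HIST1H2APS1 among the 13, are annotated as pseudogenes. Since the authors searched only around mRNA starts, these genes may not have been searched at all. The part of mappability in the missing calls was not tested beyond this count.

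Sequences upstream of the 49 called gene TSSs were counted on both strands in the 150 nt before the TSS, except TATAAA, which was read on the sense strand starting 40 to 20 nt upstream. CCAAT was found at 41 of 49 (83.7%), against 25.3% of all gene TSSs. TATAAA stood at 24 (49.0%), against 1.41%. The octamer was present at 13 (26.5%) against 0.76%, and GGTCCG at 9 (18.4%) against 9.78%. GGGCGG, the GC box bound by SP1, was at 6 (12.2%) against 60.6%. GC content from 250 nt upstream to 50 nt downstream had a median of 43.0% (36.3% to 59.7%) at called histone genes and 66.0% over all gene TSSs.

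Among called genes, classes differed in which sequences they held. The H1 box AAACACA was at 4 of 4 called H1 genes and at 0 of the 45 others, against 1.17% of all gene TSSs. CCAAT was at every called H1, H2B and H3 gene and at 13 of 14 H2A genes, the exception being HIST1H2AB, whose call lies inside its coding sequence. None of the 7 called H4 genes had CCAAT, while 6 of 7 had GGTCCG, the exception being HIST1H4A. GGTCCG was found at 3 of the 42 genes of other classes. The octamer was at 9 of 15 H2B and 4 of 14 H2A genes and at 0 of 20 genes of the other classes. Since the H2A and H2B genes of a pair are separated by about 240 nt, their 150-nt windows overlap, so a match between them can count for both. TATAAA was at 2 of 4 H1, 8 of 14 H2A, 5 of 15 H2B, 6 of 9 H3 and 3 of 7 H4 genes. A pyrimidine followed by a purine at -1 and +1, the core of an initiator, was at 38 of 49 (77.6%), against 66.1% of all gene TSSs, and CA there was at 19 (38.8%), against 30.3%. Binding of these factors was not measured here. Uncalled coding genes, searched from their annotated starts, did not all follow the called genes of their class. CCAAT was upstream of HIST1H4F, HIST1H4I and HIST1H4L, but not of HIST1H4G, HIST1H4J, HIST1H4K or HIST2H4B. Of these H4 genes, all but HIST1H4G held GGTCCG. HIST1H1T held AAACACA and HIST1H1A did not. The H2B gene HIST1H2BE held no CCAAT.

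In poly-A enriched RNA most histone genes were low. The median of the 70 was 0.266 FPKM, against 0.528 over all genes. At or above 1 FPKM were 22 (31.4%, exact interval 20.9% to 43.6%), where the background was 46.9% of all genes, and 19 (27.1%) were listed at 0, where the background was 30.1%. No ribosomal protein gene of 73 was listed at 0, and 3 were under 1 FPKM.

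A few genes held most of the signal. HIST1H2BK, a gene for H2B, had 196.568 FPKM, the 98.8th percentile of all genes. HIST1H2BD had 61.1 FPKM, and together they made up 52.5% of the summed 491.08 FPKM. HIST1H1C, an H1 gene, had 42.6, HIST1H2AC had 34.3 and HIST1H2BC had 30.6 FPKM. With HIST3H2A (21.2), HIST2H2BE (16.5), HIST1H2BG (14.6) and HIST1H2AE (13.2), the 9 genes at or above 10 FPKM made up 87.7% of the sum. The table's locus of HIST1H2BK, 8566 nt long, also holds HIST1H4I on the opposite strand, listed at 0. The 8 genes whose table locus exceeds 1000 nt had a median of 5.73 FPKM, against 0.202 for the other 62. They are HIST1H2BK, HIST1H2BD, HIST2H2BE, HIST1H3D (8.33), HIST1H2AD (3.13), HIST2H2BF (1.40), HIST2H2BA (0.0741) and HIST1H4I (0). For 5 of them, HIST1H2BK, HIST1H4I, HIST1H3D, HIST1H2AD and HIST2H2BF, another gene is given the same locus, so its length is not that of the gene alone. Whether those loci give polyadenylated transcripts was not tested.

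By class, H2B was highest, with a median of 1.17 FPKM and 10 of 20 genes at or above 1 FPKM. H2A followed, at a median of 0.341 FPKM with 7 of 17. The medians of H1 (0.143 FPKM), H3 (0.130) and H4 (0.0666) were lower, with 1 of 6, 3 of 13 and 1 of 14 at or above 1 FPKM. This order depends on the genes kept: in HIST1 alone H3 (0.348) was level with H2A (0.341), and with values above 0 only H3 (0.451) and H4 (0.283) stood above H1 (0.143). Within each class the genes spanned a wide range, and every pair of classes overlapped. The highest H3 genes were HIST1H3D (8.33 FPKM), HIST1H3H (8.11) and HIST1H3E (3.71). The table gives HIST1H3D the same locus and strand as HIST1H2AD (3.13), so how reads were divided between them is uncertain for both. The gene TSS at the start of that locus was assigned to HIST1H2AD, whose annotated start it is. The highest H4 genes were HIST1H4H (6.62), HIST1H4E (0.869) and HIST1H4B (0.685), and 6 of 14 H4 genes were listed at 0. Among the linker histones, HIST1H1C stood at 42.6 and the next, HIST1H1E, at 0.449 FPKM. HIST1H1B had 0.162, HIST1H1D 0.124, HIST1H1T (the testis form) 0.0681 and HIST1H1A 0.0207 FPKM.

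**Figure D1:**
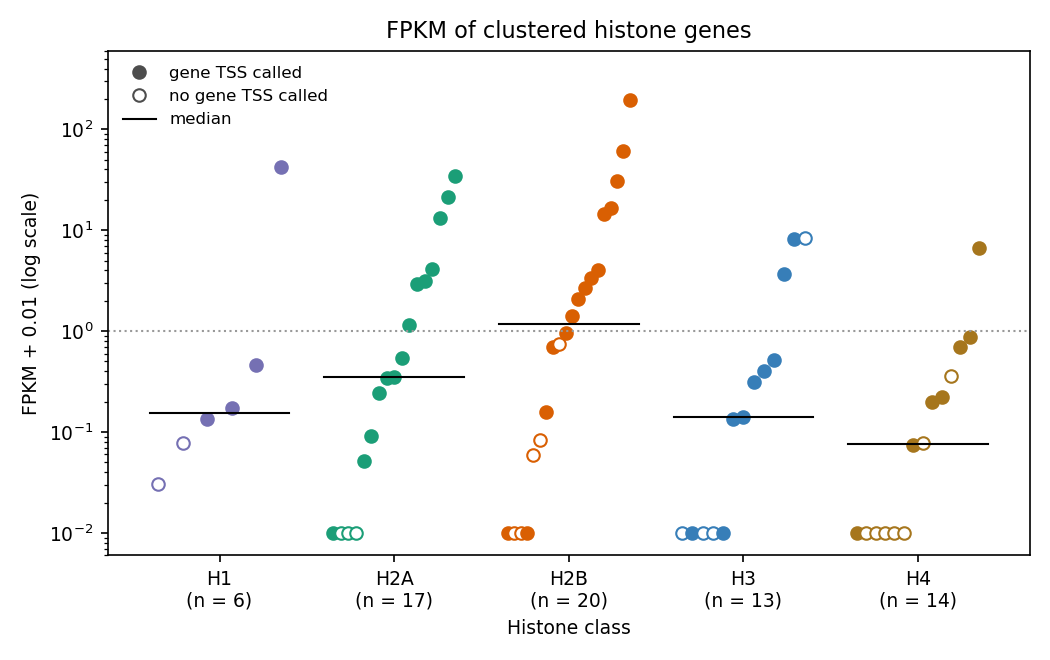
FPKM of each clustered histone gene (points, log axis after adding 0.01) by class, with genes that have no called gene TSS as open symbols. HIST1H2BK at 196.568 FPKM lies above all others, and genes of every class except H1 are also listed at 0.

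The smaller clusters were not uniform either. In HIST2, HIST2H2BE had 16.5, HIST2H2BF 1.40, HIST2H2AC 1.15, HIST2H2BC 0.736, HIST2H2AB 0.231 and HIST2H2BA 0.0741 FPKM, and HIST2H2AA4, HIST2H3A, HIST2H3D and HIST2H4B were listed at 0. Those 4 genes all have a second copy of their first 50 nt. In HIST3, HIST3H2A had 21.2 and HIST3H2BB 4.02 FPKM, and HIST3H3, the testis-associated H3, was listed at 0. HIST4H4 had 0.214 FPKM.

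The HIST1 cluster spans 2135 kb and falls into 4 blocks separated by more than 200 kb. The first, of 3 genes, holds HIST1H2AA and HIST1H2BA, which code for testis-associated histones, and the pseudogene HIST1H2APS1, and all 3 were listed at 0. The second, of 32 genes within 268 kb, had 24 called genes and 12 at or above 1 FPKM, with HIST1H2BD highest. In the next, of 5 genes, HIST1H2BK was the only one at or above 1 FPKM, and 3 were listed at 0. The last, of 16 genes within 86.4 kb, had 13 called genes and 4 at or above 1 FPKM, of which HIST1H3H (8.11) was highest. Neighbouring genes therefore ranged from 0 to the highest values in the middle blocks.

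**Figure D2:**
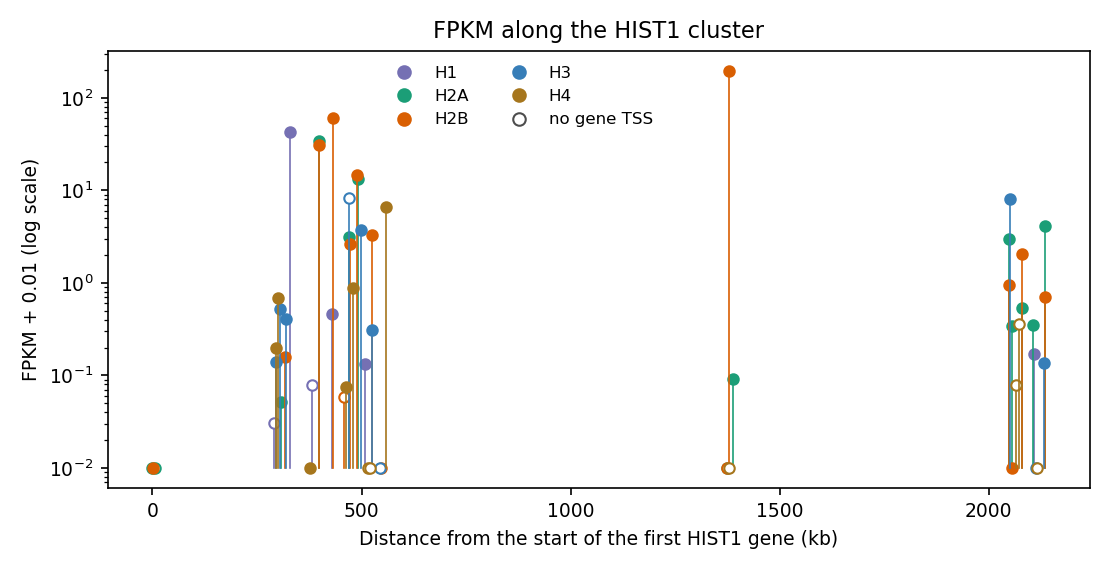
FPKM (log axis after adding 0.01) of the HIST1 genes by distance in kb from the start of the first of them, coloured by class, with open symbols for genes that have no called gene TSS. HIST1H2BK, alone in its block at or above 1 FPKM, stands at 196.568 FPKM, and the leftmost block lies at 0.

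Many histone genes had a called gene TSS but little FPKM. The 49 called genes had a median of 0.685 FPKM, and 21 (42.9%) were at or above 1 FPKM. Of all genes with a called gene TSS, 93.6% were at or above 1 FPKM and the median was 16.4. Of the 49, 6 (12.2%) were listed at 0, where the background was 0.407%: HIST1H2AA, HIST1H2BA, HIST1H2BM, HIST1H3I, HIST1H4C and HIST3H3. The 21 uncalled genes had a median of 0 FPKM. Of these, 13 were listed at 0 and HIST1H3D was the one at or above 1 FPKM, with the call at the start of its table locus assigned to HIST1H2AD.

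Divergent pairs are 2 gene TSSs on opposite strands, pointing away from each other, at most 1000 nt apart. They took in 24 of the 49 called genes (49.0%), against 11.5% of all gene TSSs. Of the 12 pairs, 11 joined an H2A and an H2B gene, and the other was HIST1H3F with HIST1H2BH, 965 nt apart. The H2A to H2B distances ran from 210 nt (HIST1H2AK with HIST1H2BN) to 259 nt (HIST1H2AE with HIST1H2BG), with a median of 239 nt. Over all 602 divergent pairs the median was 267 nt and the range 1 to 978 nt, and 14.3% were 200 to 260 nt apart. All 11 intervals held CCAAT, between 3 and 6 times, and 8 held the octamer. TATAAA stood at both gene TSSs of 4 pairs, at 1 of 3 pairs and at neither of 4, and GC content of the intervals was 38.2% to 48.9%.

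Partners of a pair ranged from nearly equal to far apart in FPKM. Of the 9 H2A and H2B pairs with both genes above 0, 3 were within 2-fold and 2 were over 10-fold apart. Their median ratio of higher to lower was 3.92. HIST1H2AC (34.3) and HIST1H2BC (30.6) differed 1.12-fold, and HIST1H2AE (13.2) and HIST1H2BG (14.6) 1.11-fold. HIST1H2AD (3.13, uncertain as above) and HIST1H2BF (2.65) were also close. At the other end, HIST1H2BK (196.568) and HIST1H2AH (0.0814) differed 2415-fold, and HIST2H2BE (16.5) and HIST2H2AC (1.15) 14.3-fold. The remaining ratios were between these, with HIST3H2A above HIST3H2BB by 5.26-fold and HIST1H2AM above HIST1H2BO by 6.03-fold. HIST1H2AI (2.94) exceeded HIST1H2BL (0.946), and HIST1H2BN (2.07) exceeded HIST1H2AK (0.527). HIST1H2AA and HIST1H2BA were both listed at 0, as was HIST1H2BM beside HIST1H2AJ at 0.332 FPKM. The H2A gene was higher in 6 pairs and the H2B gene in 4. Outside these counts, HIST1H2BH (3.32) and HIST1H3F (0.301) differed 11.0-fold.

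Antisense TSSs were called upstream (uaTSS, up to 1000 nt) or downstream (daTSS, up to 2000 nt) of a gene TSS on the opposite strand. A uaTSS was called at 13 of the 49 genes (26.5%, exact interval 14.9% to 41.1%), against 53.1% of all gene TSSs, and a daTSS at 20 (40.8%, 27.0% to 55.8%), against 28.4%. Both were called at 5 (10.2%), against 17.5%: HIST1H2AL, HIST1H4B, HIST1H4E, HIST1H4H and HIST4H4. Neither was called at 21.

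The counts differed between genes with and without a divergent gene TSS. At the 25 genes without a divergent gene TSS, a uaTSS was called at 12 (48.0%), where the background was 57.9%. At the 24 with one it was called at 1 (4.17%), HIST1H3F, where the background was 16.2%. None of the 11 H2A and H2B pairs had one. In these pairs the partner's gene TSS lies inside the uaTSS search window, on the opposite strand. No antisense call of a histone gene lay within 100 nt of a gene TSS on its own strand. Partner starts were thus not listed as uaTSSs, so these counts do not show that upstream antisense initiation was absent. The share of 26.5% over all 49 genes includes these pairs. For daTSSs the counts were 13 of 25 (52.0%, background 31.2%) and 7 of 24 (29.2%, background 7.1%). Among classes, H4 genes had a uaTSS at 6 of 7, the exception being HIST1H4D, while H2B had one at 1 of 15 (HIST1H2BD). The 6 are HIST1H4A, HIST1H4B, HIST1H4C, HIST1H4E, HIST1H4H and HIST4H4. H2A had 3 of 14, H3 2 of 9 and H1 1 of 4. None of the 7 called H4 genes is in a divergent pair, whereas 11 of 14 H2A and 12 of 15 H2B genes are.

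The uaTSSs lay a median of 202 nt from the gene TSS (24 to 836 nt), against 200 nt over all. The nearest was at HIST1H2AB and the farthest at HIST4H4. The daTSSs lay a median of 860 nt downstream (139 to 2000 nt), against 507 nt over all, and 7 were over 1000 nt. Among the 10 genes of highest FPKM with a daTSS, it lay at 1330 nt for HIST1H2BK, 2000 for HIST1H2AC, 923 for HIST2H2BE, 1010 for HIST1H2BG and 416 for HIST1H3H. For HIST1H4H it lay at 190 nt, for HIST1H2BN at 1127, for HIST1H4E at 810, for HIST1H4B at 765 and for HIST1H2AK at 854. Histone transcripts are short, and 15 of the 20 daTSSs fell past the stop codon of the gene. In 4 genes the daTSS lay inside the coding sequence: HIST1H3H (416 nt), HIST1H3I (236 nt), HIST1H3J (172 nt) and HIST1H4H (190 nt). At HIST1H2BB it lay before the start codon, 139 nt downstream of the upstream-displaced gene TSS. The authors had filtered out daTSSs with an annotated start of the same strand less than 1000 nt away, so their spacing from such starts is set by that filter. Of the 13 uaTSSs, the closest to a called gene TSS on its own strand was that of HIST1H3F, 891 nt away. The daTSS of HIST1H2BK, 1330 nt downstream, was the only one inside the table locus of another gene, HIST1H4I. Both genes are given the same 8566-nt locus, and the coding sequence of HIST1H4I is 312 nt. This overlap therefore does not place the daTSS within the H4 gene itself. That of HIST1H2AC was at 2000 nt, the edge of the search window.

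Over all 49 called genes, those with a uaTSS had a median of 0.341 FPKM (13 genes) and those without 0.816 (36 genes), and those with a daTSS had 0.517 (20 genes) against 0.946 (29 genes). Both directions turned among the 25 called genes without a divergent gene TSS. There the median was 0.513 with a uaTSS (12 genes) and 0.147 without (13 genes), and 0.396 with a daTSS (13 genes) against 0.176 (12 genes). Genes in a divergent pair had a median of 2.80 FPKM, against 0.231 for called genes without one, and 23 of the 36 genes without a uaTSS are in such pairs. Among the 24 genes in pairs, the 7 with a daTSS had a median of 14.6 FPKM and the 17 without 2.65. Among called genes the octamer was found only at those in divergent pairs, where the 13 genes with it had a median of 3.32 FPKM and the 11 without 1.15. This split rests on the 150-nt window. HIST1H2AH (0.0814), HIST1H2AJ (0.332), HIST2H2AC (1.15) and HIST1H2AE (13.2) count as without it, though the interval shared with their partner holds an octamer. The uncalled genes HIST1H2BE (0.0490), HIST1H2BI (0) and HIST1H2BJ (0) also hold one. Genes with TATAAA had 0.391 FPKM against 1.40 without, and the order was the same with a divergent gene TSS (1.05 against 3.22) and without one (0.210 against 0.341). These medians are descriptions of the genes at hand.

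Of 20 listed histone genes outside the clusters, 19 were in the table, with a median of 15.7 FPKM and 12 at or above 1 FPKM. H2AFZ, which codes for the variant H2A.Z, had 317 FPKM, H1F0 189, H2AFY (macroH2A) 166, H3F3B (H3.3) 140 and H2AFX 87.3. A gene TSS was called at 11, with a uaTSS at 7 and a daTSS at 6, and 0 were in a divergent pair. All 17 listed genes for histone mRNA synthesis and 3′ end processing were at or above 1 FPKM, with a median of 18.6. SLBP, the stem-loop binding protein, had 56.3 FPKM, NPAT 7.63, CASP8AP2 (FLASH) 7.01, HINFP 13.9, POU2F1 3.33 and LSM11, a U7 snRNP subunit, 2.61. Markers of luminal cells were high: 9 of 9 luminal genes lay between 44.1 and 1142 FPKM and summed to 3596. The 4 basal genes summed to 0.641, with KRT5 and KRT14 listed at 0. The 4 fibroblast genes summed to 8.86 FPKM, of which COL1A1 gave 8.82.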

How the data were processed

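Start-seq (2 samples), RNA-seq (3), MNase-seq (1) and FAIRE-seq (1) were listed for 1 growth condition. Values of the second Start-seq library and of both chromatin assays were not analysed here. For both assays the authors removed reads of mean quality below 20 and trimmed adapters with cutadapt 1.2.1. For Start-seq they aligned reads to hg19 with Bowtie 0.12.8, took 5′ ends of uniquely mapped fragments, and called TSSs from 5 reads upward. The deposited TSS positions are single nucleotides whose deposited score is 0 throughout. The deposited FPKM values were estimated by the authors with Cufflinks 2.2.1 after TopHat 2.0.4, Picard removal of duplicates and merging of 3 poly-A selected, stranded replicates. How reads shared by similar genes were divided is not given in the sources used here.

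Members were matched to GENCODE release 44 lifted to GRCh37 by name and locus. HIST1H2BF, HIST1H2BG and HIST1H4F were not matched by name, and their strand came from the longest reading frame. A gene TSS belonged to the gene of the same strand whose start was nearest, within 1000 nt. TSS lists were joined by their identifier. Clopper-Pearson intervals are at 95%. TSS assignment, pairing and the motif searches were tested on simulated data. Python 3.11.15, numpy 2.4.6, scipy 1.17.1, Biopython 1.88 and matplotlib 3.10.9 were used. No test between genes was made. The members and lists were chosen with earlier results of these data known. Values in full were given for the 3 genes of highest FPKM per class, the lowest called gene per class, the HIST2, HIST3 and HIST4 genes, the 10 genes of highest FPKM with a daTSS and the nearest and farthest divergent pairs. A leukocyte marker list is not reported here. Alternatives covered distance limits, FPKM thresholds, values above 0, motif windows and copies.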

Additional observations from a re-analysis of the deposited data

How the results depend on the processing

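Of 34 alternatives to 16 results, 29 kept the value within 1.5-fold for counts or within the spread over genes for medians, and 5 moved it. Some of the 29 could not move. No called gene had a second copy of its first 50 nt, and all H1 genes are in HIST1 and above 0 FPKM. The spread over genes is also wide: with values above 0 only, the H4 median went from 0.0666 to 0.283 FPKM and still counted as kept. Without divergent gene TSSs, genes with a daTSS fell from 20 to 13, and counting daTSSs only within 1000 nt also gave 13. The count of 22 genes at or above 1 FPKM became 43 at 0.1 FPKM and 12 at 5 FPKM. With values above 0 only, the median of uncalled genes was 0.0712 rather than 0 FPKM. Copies of the first 30 nt and first 100 nt, added after seeing the data, gave 8 and 7 genes in place of 8. The split of FPKM medians by divergent gene TSS was also added then. No paired analysis was possible because the deposited values hold 1 merged FPKM column and 1 list of calls. Depth is unknown, so a gene listed at 0 or without a call cannot be called silent.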

Other observations

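Genes for histone chaperones, which carry histones to and from DNA, were all at or above 1 FPKM (12 of 12, median 19.3, against 0.266 for the clustered histone genes). SSRP1, a subunit of FACT, had 201 FPKM, ASF1B 53.4, NASP 48.2 and DAXX 47.5, and the lowest was ATRX at 7.37. A gene TSS was called at 9 of the 12, with a uaTSS at 6 and a daTSS at 2.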
